A study of Schmidtea mediterranea with 6 samples.

Results

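Fibrillar collagens of planarian muscle were followed as 6 contigs (assembled transcripts) out of the 28742 contigs counted in tail RNA of *Schmidtea mediterranea*. They carry the genes *colF-1*, *colF-2*, *colF-3* and *colF-4*, *colF-5*, *colF-8*, and *colF-9*, where *colF-3* and *colF-4* lie on the same contig. The 6 were chosen by these gene names, with earlier results of these data known. Abundance does not set them apart from all other fibrillar collagens, since the contigs of *colF-6* and *colF-7*, which the choice left out, ranked 60 and 82 by reads (not per length) and the 6 ranked between 21 and 112. All 6 passed the filter on low counts. The *hmcn-1(RNAi)* animals were fed dsRNA of *hmcn-1*, the gene of hemicentin-1, a large glycoprotein of the extracellular matrix, and the control(RNAi) animals were fed dsRNA against *unc-22*, a *Caenorhabditis elegans* gene that planarians lack. Both groups were of the strain CIW4, received 4 feedings, and were sampled as freshly cut tails on day 13 of RNAi, with 3 libraries of poly(A) RNA per group and 5 pooled tails per library. No age is given in the labels. RNAi by feeding is not directed at muscle or any other tissue, and a pool of tails hides differences between animals.

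Fibrillar collagens are chains of Gly-X-Y triplets that wind into triple helices and, after trimming of their ends, assemble into the fibrils that give connective tissue its strength. A C-terminal COLFI domain brings the chains together. In vertebrates, fibroblasts and related cells secrete most of them, whereas in planarians they are transcribed in muscle, and *colF-2* serves as a standard marker of planarian muscle. Among the genes followed here, *colF-8* and *colF-9* are annotated with an N-terminal TSPN domain and *colF-4* with an N-terminal vWC domain. The comparison addressed how transcripts of fibril-forming chains stood early after RNAi of *hmcn-1*, a gene that is itself transcribed in muscle.

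The triplet repeat can be seen in the primers with which the study cloned these genes. They are shown to display the repeat, which these chains share with other collagens. Each is a forward primer written 5′ to 3′ (the inner one for *colF-2* and *colF-3* and the outer one for the others), and capitals mark glycine codons (GGN) spaced 9 bases apart, the length of a Gly-X-Y triplet. The GG at the end of the *colF-3* primer opens a further such codon.
*colF-1*: cagtGGTccggttGGTcc
*colF-2*: acaaGGTtctgtaGGTccgc
*colF-3*: GGAccttcaGGGgatatcGG
*colF-4*: cagttGGTtccccgGGTc
*colF-5*: ttGGTgaacgcGGAggac
*colF-8*: caaaactGGGgctcaaGGTg
*colF-9*: atccgGGCcaacaaGGTg
Read on the sense strand, 18 of the 21 primers of these 7 genes held a pair of GG dinucleotides at this spacing (GGNNNNNNNGG). The same spacing was found in 21 of 27 primers of the other fibrillar and type IV collagen genes and in 5 of 45 primers of genes that are no collagen. A pair was scored only if every further position at this spacing within the primer held GG too, so these counts may be low. The repeat means that these chains resemble one another in sequence, and reads were aligned by bowtie with its -best option. What was done with a read that matched several contigs equally well is not stated beyond that option, so that related contigs may share reads. The contig of *colF-3* and *colF-4* holds the *colF-4* chain on its reverse strand, and its reads cannot be divided between these genes.

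The libraries held 6374450 to 11887127 reads, and 15333 contigs were tested. Levels are CPM, read counts scaled to a common, TMM-scaled library total. They are not per length, so levels are compared within a contig only. The targeted gene *hmcn-1* was at 18.5, 18.5, and 16.7 CPM in the 3 *hmcn-1(RNAi)* libraries, against 205, 206, and 204 CPM in the 3 control libraries. Control replicate 1 stood apart from the other control libraries, with a chi-square over degrees of freedom of 7.98 and 6.46 against them. Between control replicates 2 and 3 it was 2.47. Against the *hmcn-1(RNAi)* libraries, control replicate 1 gave 5.57 to 5.85, within the 4.2 to 6.46 of the other control libraries. The labels do not say whether the pools came from separate RNAi experiments, so p values measure the spread between these pools.

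Most of the 6 fibrillar collagen contigs were called slightly lower after *hmcn-1* RNAi, and the count changed when single libraries were left out. Of the 6, 4 were called lower (edgeR's quasi-likelihood test, Benjamini-Hochberg adjusted p under 0.05) and 0 were called higher, where 94 of the 15333 tested contigs (0.613%) were called lower and 79 (0.515%) higher, or 1.13% in either direction. At an unadjusted p under 0.05, 5 were lower and 0 higher, and DESeq2 and limma-voom likewise called 0 higher. The decrease of the called contigs was between 10.1% and 11.3%. The median log2 fold change of *hmcn-1(RNAi)* over control was -0.16 over the 6 contigs and 8.85e-05 over all contigs tested, whose quartiles were -0.092 and 0.096. In 5 of the 6 contigs the highest *hmcn-1(RNAi)* library was below the lowest control library, which was the case for 7.78% of all contigs tested, while 7.81% showed the reverse. In bulk tissue, fewer muscle cells and less collagen RNA per muscle cell cannot be told apart.

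*colF-8*, a TSPN-bearing chain (contig dd_Smed_v6_402_0_1), had the smallest adjusted p. Its levels were 1483, 1424, and 1469 CPM in *hmcn-1(RNAi)* libraries, against 1650, 1612, and 1673 CPM in control libraries. The groups were far apart relative to their spread, with means of 1459 ± 30.5 CPM in *hmcn-1(RNAi)* and 1645 ± 30.8 CPM in control libraries (SD, n = 3 each). The log2 fold change was -0.17 (SE 0.035, 95% interval -0.25 to -0.10, adjusted p = 0.00629, edgeR, Benjamini-Hochberg).

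*colF-9*, the other TSPN-bearing chain (dd_Smed_v6_701_0_1), was at 1410, 1322, and 1377 CPM in *hmcn-1(RNAi)* libraries, against 1509, 1513, and 1575 CPM in control libraries. The lowest control library lay above the highest *hmcn-1(RNAi)* library. A decrease of 10.6% resulted, with a log2 fold change of -0.16 (SE 0.037, adjusted p = 0.0171, edgeR, Benjamini-Hochberg).

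The shared contig of *colF-3* and *colF-4* (dd_Smed_v6_649_0_1) was at 2606, 2455, and 2607 CPM in *hmcn-1(RNAi)* libraries, against 2731, 2899, and 2982 CPM in control libraries. Here the *hmcn-1(RNAi)* replicate 2 was low and control replicate 1 was the lowest of its group, and the groups did not overlap. The log2 fold change was -0.17 (SE 0.037, adjusted p = 0.012, edgeR, Benjamini-Hochberg), a decrease of 10.95%. This decrease refers to the sum of both genes unless the counting used the strand, which is not stated.

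*colF-2* (dd_Smed_v6_702_0_1), the muscle marker, was at 1188, 1180, and 1204 CPM in *hmcn-1(RNAi)* libraries, against 1255, 1353, and 1367 CPM in control libraries. The *hmcn-1(RNAi)* libraries were close together (SD 1.02% of the mean), while the control libraries spread more (4.58%), with control replicate 1 nearest to the *hmcn-1(RNAi)* libraries. On the log2 scale the fold change was -0.15 (SE 0.038, adjusted p = 0.0311, edgeR, Benjamini-Hochberg), a decrease of 10.1%.

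*colF-5* (dd_Smed_v6_740_0_1) had the largest fold change of the 6 and was not called. Its levels were 855, 946, and 861 CPM in *hmcn-1(RNAi)* libraries, against 964, 1077, and 1136 CPM in control libraries. The groups did not overlap, but *hmcn-1(RNAi)* replicate 2 and control replicate 1 came within a small margin of each other. The spread of each group was the widest among the 6, at 5.74% in *hmcn-1(RNAi)* and 8.23% in control. The log2 fold change was -0.26 (SE 0.060, 95% interval -0.39 to -0.12, adjusted p = 0.0939, edgeR, Benjamini-Hochberg).

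*colF-1* (dd_Smed_v6_1070_0_1) was not called and was the only contig of the 6 whose groups overlapped. It was at 1123, 1073, and 1101 CPM in *hmcn-1(RNAi)* libraries, against 1075, 1182, and 1238 CPM in control libraries. Control replicate 1 fell among the *hmcn-1(RNAi)* libraries, and the other control libraries were higher. The log2 fold change was -0.084 (SE 0.042, 95% interval -0.17 to 0.0019, adjusted p = 0.468, edgeR, Benjamini-Hochberg). The interval includes the fold changes of *colF-2*, *colF-3*/*colF-4*, and *colF-9*. It does not include that of *colF-5* and, by a small margin, that of *colF-8*.

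**Figure D1:**
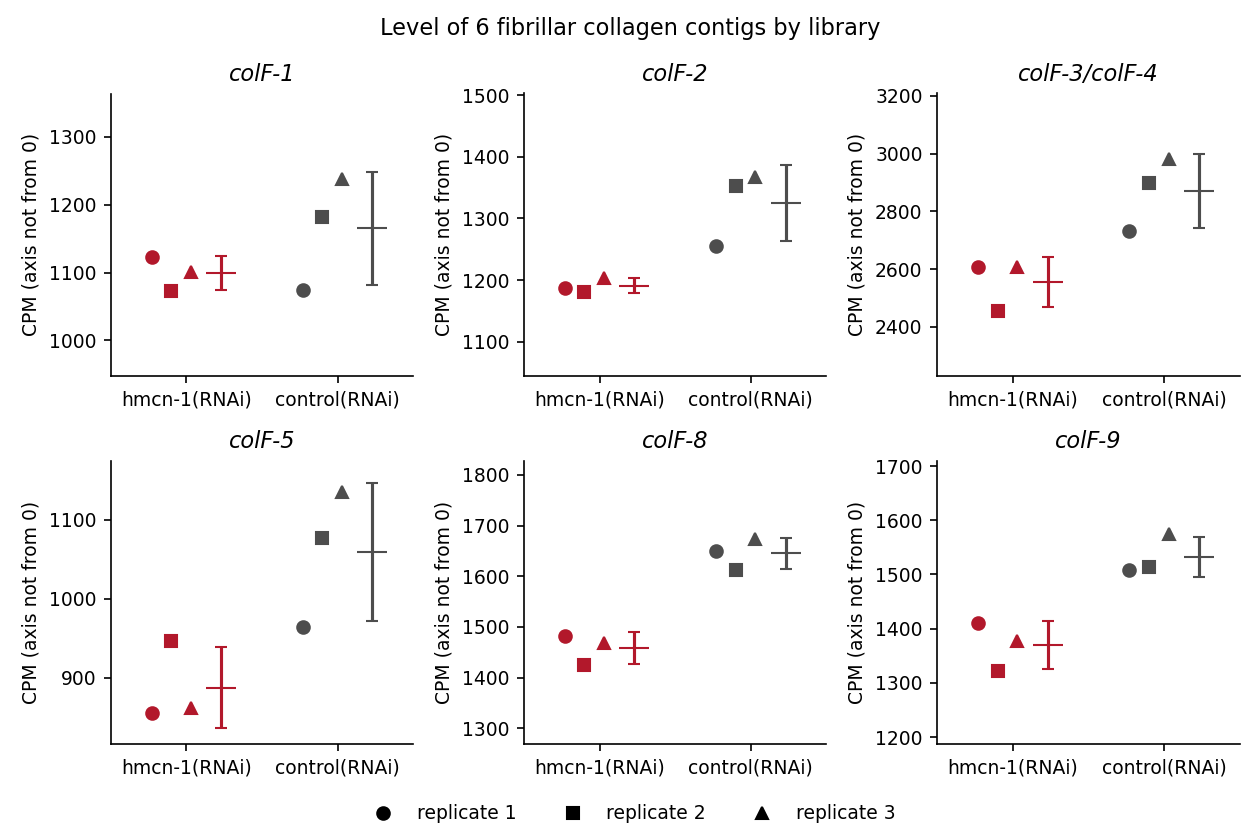
Level of each of the 6 fibrillar collagen contigs in CPM (vertical axes, not from 0, all spanning the same relative range) in the 3 *hmcn-1(RNAi)* and the 3 control(RNAi) libraries, with marker shapes for replicates and the mean ± SD beside the points. The groups are apart in all panels except *colF-1*, where control replicate 1 (1075 CPM) lies among the *hmcn-1(RNAi)* libraries (1073 to 1123 CPM).

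The order of libraries was largely shared among the contigs. Control replicate 3 was the highest control library for all 6, control replicate 1 the lowest for 5, and *hmcn-1(RNAi)* replicate 2 the lowest of its group for 5. The exceptions were *colF-8*, whose lowest control library was replicate 2, and *colF-5*, whose *hmcn-1(RNAi)* replicate 2 was the highest of its group. The order was not particular to the 6, since *colF-6* and *colF-7* had it in these 3 respects. Control replicate 3 was also the highest control library for *colF-10*, *colF-11*, *col4-1*, *col4-2*, *col4-4*, *mp-1*, and *mp-2*, but not for *col4-3*, *col4-5*, and *mp-3*. The level of control replicate 1, as log2 CPM centred on each contig's own mean, was 0.091 for *colF-8*, 0.059 for *colF-9*, 0.012 for *colF-3*/*colF-4*, -0.00040 for *colF-2*, -0.0052 for *colF-5*, and -0.073 for *colF-1*. In control replicate 3 these centred levels were between 0.11 and 0.14 for all but *colF-5*, at 0.23. *colF-2* was nearest to the mean pattern of the 6, with a root mean square difference of 0.0152 over the 6 libraries, and *colF-5* was farthest, with 0.0778. Counting error was between 0.57% and 1.29% for the 5987 to 30824 reads of a contig in a library, which is less than most of the spreads between libraries.

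**Figure D2:**
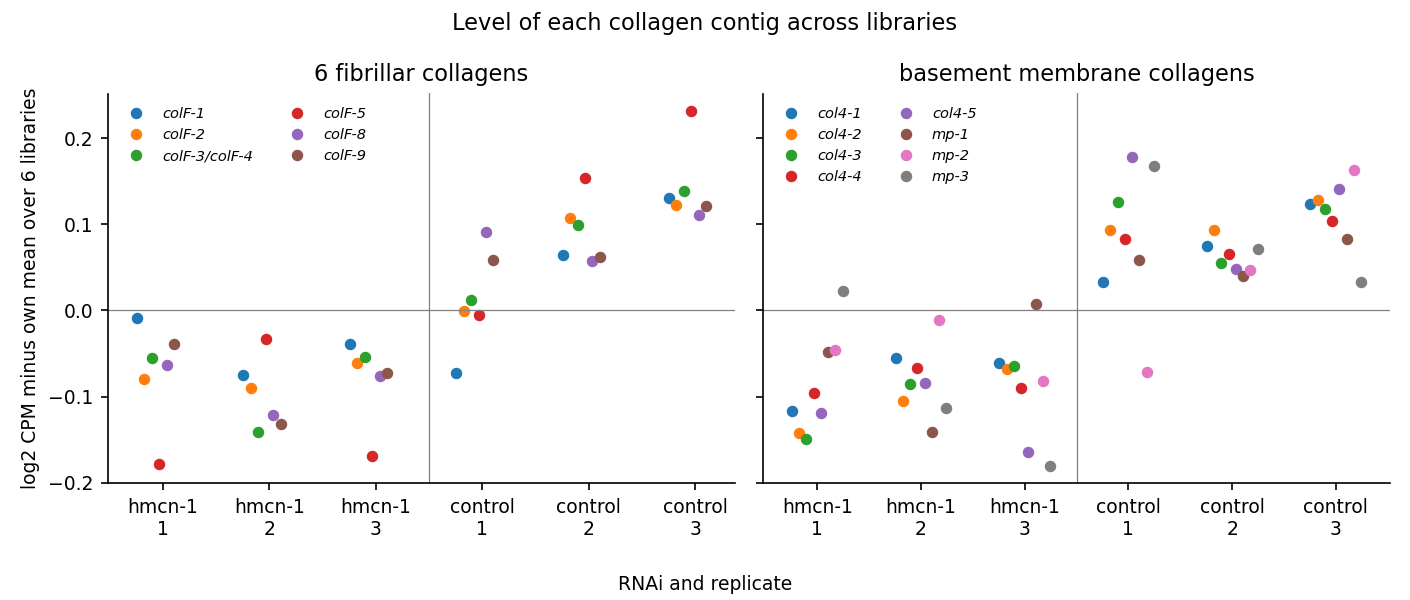
Level of each contig as log2 CPM minus its own mean over the 6 libraries (vertical axis), for the 6 fibrillar collagens (left panel) and the 8 basement membrane collagens (right panel), in the *hmcn-1(RNAi)* and then the control libraries by replicate. In control replicate 1 the fibrillar collagens spread between -0.073 (*colF-1*) and 0.091 (*colF-8*), whereas in control replicate 3 all 6 lie above 0.11.

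The calls changed when single libraries were left out. Without control replicate 1, all 6 contigs were called lower, with an adjusted p from 1.15e-05 for *colF-5* to 0.0386 for *colF-1* (edgeR, Benjamini-Hochberg). When control replicate 3 or *hmcn-1(RNAi)* replicate 3 was left out, 0 were called by edgeR, although 5 had an unadjusted p under 0.05 in each case. Without *hmcn-1(RNAi)* replicate 2 the only call was *colF-5*. The call of *colF-2* was lost in 5 of the 6 leave-outs, and those of *colF-3*/*colF-4*, *colF-8*, and *colF-9* in 3 of 6 each. The fold changes moved less than the calls. The log2 fold change stayed between -0.19 and -0.16 for *colF-8*, between -0.18 and -0.14 for *colF-9*, between -0.20 and -0.14 for *colF-3*/*colF-4*, between -0.19 and -0.13 for *colF-2*, between -0.32 and -0.20 for *colF-5*, and between -0.14 and -0.040 for *colF-1*. No leave-out turned a direction. Without *hmcn-1(RNAi)* replicate 3, the log2 fold change of *colF-8* was -0.18 (SE 0.044), against -0.17 (SE 0.035) with all libraries. In that leave-out 91 of all tested contigs were called, against 173 with all libraries. The part of the smaller number of libraries in the lost calls was not tested. Another test or filter also changed the calls. The contig of *colF-5* was called in limma-voom (adjusted p = 0.0473, Benjamini-Hochberg) and by edgeR without the filter on low counts (adjusted p = 3.51e-08, Benjamini-Hochberg), and limma-voom did not call *colF-2* (adjusted p = 0.0631, Benjamini-Hochberg). Of the 6 contigs, DESeq2 called 5 with its independent filtering (all but *colF-1*) and 2 without it (*colF-5* and *colF-8*). Against a change of 1.2-fold (glmTreat in edgeR), 0 contigs were called at an adjusted or an unadjusted p under 0.05.

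**Figure D3:**
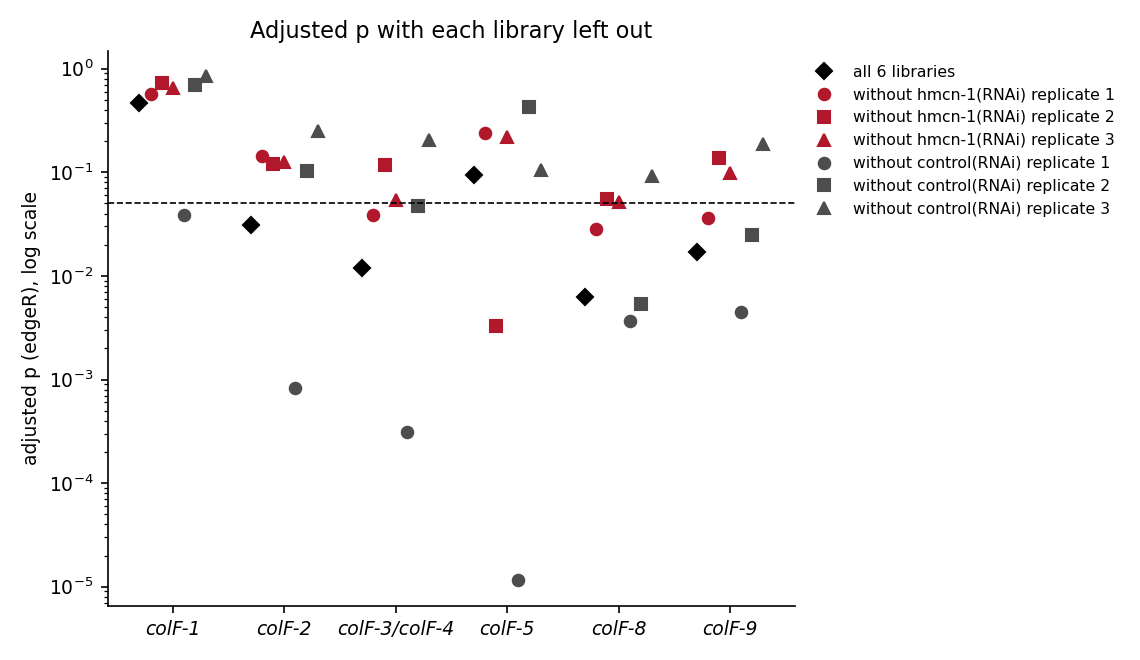
Adjusted p of each fibrillar collagen contig from edgeR (vertical axis, log scale) with all 6 libraries (black diamonds) and with each *hmcn-1(RNAi)* (red) or control (grey) library left out, where the dashed line is at 0.05. With all libraries *colF-2*, *colF-3*/*colF-4*, *colF-8*, and *colF-9* lie below the line, and without control replicate 1 all 6 do, down to 1.15e-05 for *colF-5*.

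Ratios of reads within a library do not depend on the scaling between libraries. Over the 15 pairs of the 6 contigs, the ratio did not overlap between the groups in 5 pairs, which were the 5 pairs with *colF-1*. In *hmcn-1(RNAi)* libraries *colF-1* was higher relative to each of the other chains. For example, the ratio of *colF-1* to *colF-9* was 0.797, 0.811, and 0.799 in *hmcn-1(RNAi)* libraries, against 0.712, 0.782, and 0.786 in control libraries. The log2 differences of these 5 ratios were between 0.071 (over *colF-2*) and 0.17 (over *colF-5*), each with an exact two-sided permutation p of 0.1, the smallest that 3 libraries against 3 allow, and 0.3 after Benjamini-Hochberg adjustment over the 15 pairs. All 5 share the reads of *colF-1* and are not independent. They go with the smaller log2 fold change of *colF-1* (-0.084, against -0.15 to -0.26 for the others) and are not a separate result. The share of such pairs among other contigs was not computed. In the other 10 pairs the groups overlapped. The ratio of *colF-8* to *colF-9*, the TSPN-bearing chains, was 1.05, 1.08, and 1.07 in *hmcn-1(RNAi)* libraries, against 1.09, 1.07, and 1.06 in control libraries. Together the 6 contigs held 0.865%, 0.835%, and 0.857% of the reads of the *hmcn-1(RNAi)* libraries, against 0.894%, 0.971%, and 1.01% of those of the control libraries, or 0.852% ± 0.0154 in *hmcn-1(RNAi)* and 0.958% ± 0.0584 in control (SD, n = 3 each).

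Among the 4 remaining fibrillar collagens, *colF-6* was called lower, at 1367, 1313, and 1413 CPM in *hmcn-1(RNAi)* libraries, against 1496, 1512, and 1552 CPM in control libraries (log2 fold change -0.16, SE 0.037, adjusted p = 0.0242, edgeR, Benjamini-Hochberg). The call was lost without *hmcn-1(RNAi)* replicate 1 or 2 or control replicate 3, where 0 of the 4 were called by edgeR and 2, 3, and 2 had an unadjusted p under 0.05. Without control replicate 1, 2 were called. *colF-11*, which also carries a TSPN domain, was at the other end of this list, at 21.9, 24.1, and 24.5 CPM in *hmcn-1(RNAi)* libraries, against 22.9, 21.6, and 26.2 CPM in control libraries (log2 fold change -0.00093, 95% interval -0.20 to 0.19). The median log2 fold change of the 4 was -0.11. The reads of the 6 contigs over those of these 4 gave ratios of 3.30, 3.35, and 3.23 in *hmcn-1(RNAi)* libraries, against 3.27, 3.38, and 3.41 in control libraries, which overlap.

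Basement membrane collagens form sheets under epithelia and around muscle instead of fibrils. Of 8 contigs (5 type IV chains and 3 multiplexins), 4 were called lower and 0 higher, and all 8 fold changes were negative, with a median log2 fold change of -0.17. At an unadjusted p under 0.05, edgeR gave 6 lower and 0 higher, and DESeq2 and limma-voom called 0 higher. The type IV chain *col4-2* was at 369, 379, and 389 CPM in *hmcn-1(RNAi)* libraries, against 435, 435, and 446 CPM in control libraries, a log2 fold change of -0.21 (SE 0.040, adjusted p = 0.00291, edgeR, Benjamini-Hochberg). *col4-1*, *col4-3*, and *col4-5* were called as well, with log2 fold changes of -0.16, -0.20, and -0.25, the last being the lowest of the list. The multiplexin *mp-2* had the smallest difference, with -0.10 (95% interval -0.27 to 0.060). With control replicate 3 or *hmcn-1(RNAi)* replicate 1 left out, only 1 of the 8 was called, and 2 were called with *hmcn-1(RNAi)* replicate 3 left out. The ratio of the 6 fibrillar contigs to these 8 was 5.61, 5.28, and 5.39 in *hmcn-1(RNAi)* libraries, against 5.15, 5.45, and 5.45 in control libraries, and the groups overlapped. Over all 18 collagen contigs, 9 were called lower and 0 higher, and all 18 log2 fold changes were below 0. Of all contigs tested, 0.613% were called lower and 49.98% had a negative log2 fold change. The log2 fold change of *colF-11* was above 0 without the filter on low counts (0.0043), in limma-voom (0.0037), without *hmcn-1(RNAi)* replicate 1 (0.046), and without control replicate 3 (0.087).

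**Figure D4:**
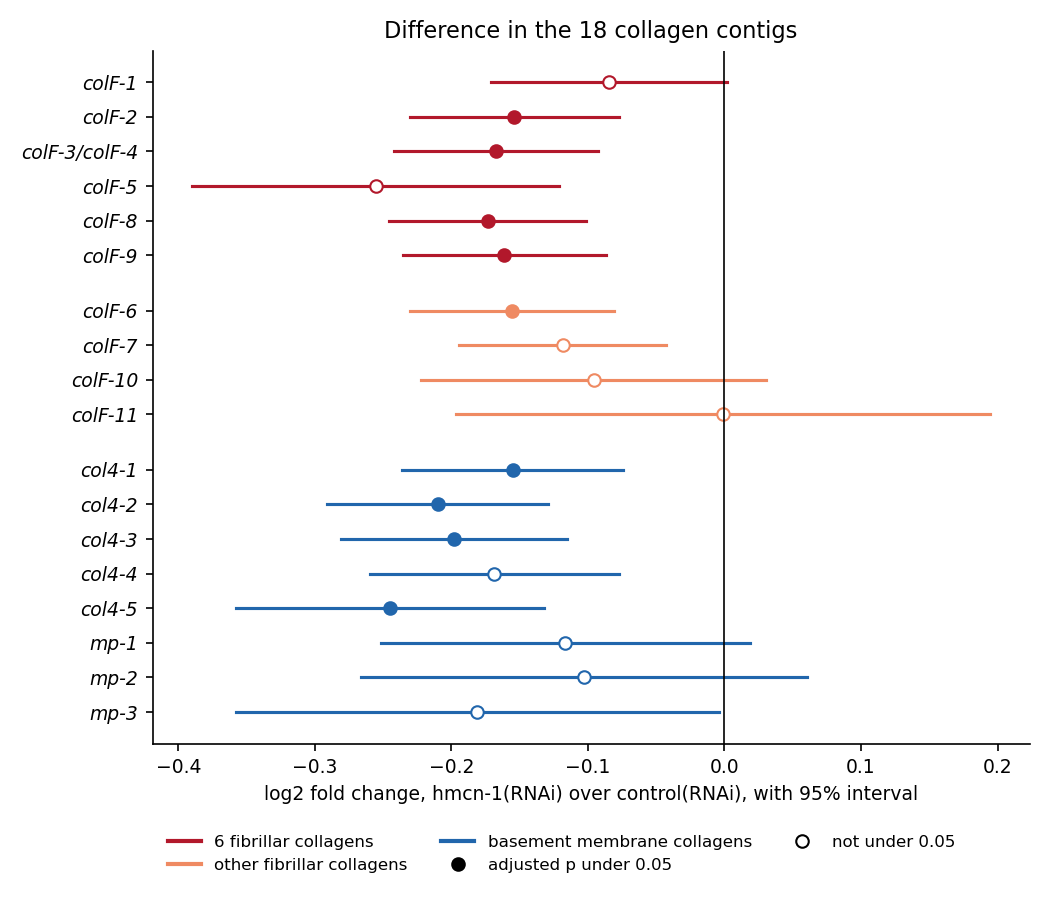
Log2 fold change of *hmcn-1(RNAi)* over control(RNAi) with its 95% interval (horizontal axis) for the 6 fibrillar collagens (red), the 4 other fibrillar collagens (orange), and the 8 basement membrane collagens (blue), where filled points have an adjusted p under 0.05. The 18 points lie below 0, from -0.26 for *colF-5* to -0.00093 for *colF-11*, the contig whose sign changed without the filter, in limma-voom, and without *hmcn-1(RNAi)* replicate 1 or control replicate 3.

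Collagen chains are modified and processed by other gene products. Prolyl and lysyl hydroxylases modify the chains in the endoplasmic reticulum, tolloid-type proteases trim procollagens, lysyl oxidases cross-link collagen outside the cell, SPARC binds it, and matrix metalloproteases cleave it. Of 15 such contigs, 0 were called lower and 1 was called higher by edgeR (0.515% of all contigs tested were called higher), and their median log2 fold change was -0.0079. At an unadjusted p under 0.05, 2 were lower and 2 higher in edgeR. DESeq2 called 0 lower and 1 higher without independent filtering. With that filter it gave an adjusted p for 9 of the 15, not including the contig called by edgeR, and called 0 of these 9. The called contig was dd_7096, named after the lysyl oxidase family member LOXL2, which was at 37.1, 36.1, and 37.8 CPM in *hmcn-1(RNAi)* libraries, against 24.8, 24.2, and 24.0 CPM in control libraries (log2 fold change 0.61, SE 0.082, adjusted p = 1.52e-05, edgeR, Benjamini-Hochberg). Its groups were far apart. The lysyl hydroxylase gene *plod-1* had the lowest fold change of the list and was not called. It was at 57.7, 65.0, and 63.7 CPM in *hmcn-1(RNAi)* libraries, against 64.9, 72.6, and 73.0 CPM in control libraries (log2 fold change -0.18, 95% interval -0.31 to -0.050, adjusted p = 0.224, edgeR, Benjamini-Hochberg).

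Contractile genes mark muscle in these tails. Of 7 canonical muscle genes, 4 were called lower and 0 higher by edgeR, all 7 had an unadjusted p under 0.05 and a negative fold change, and DESeq2 and limma-voom called 0 higher. Their median log2 fold change was -0.22, and *troponin*, a regulator of the thin filament, was at 787, 804, and 782 CPM in *hmcn-1(RNAi)* libraries, against 981, 973, and 938 CPM in control libraries (log2 fold change -0.28, SE 0.037, adjusted p = 8.56e-06, edgeR, Benjamini-Hochberg). *mhc2* (myosin heavy chain), *calponin*, and *tropomyosin* were called too, with log2 fold changes of -0.22, -0.19, and -0.22. *mhc1* had the smallest difference, with -0.085 (95% interval -0.16 to -0.0079), and a titin-like contig of 2.92 to 10.3 CPM the largest, with -1.06, a fold change set by few reads and not called (adjusted p = 0.374, edgeR, Benjamini-Hochberg). The summed level of the 7 genes was 7965 to 8213 CPM in *hmcn-1(RNAi)* libraries and 8995 to 9550 CPM in control libraries, while that of the 6 fibrillar collagens was 8401 to 8666 CPM in *hmcn-1(RNAi)* libraries and 9185 to 9970 CPM in control libraries. None of the 7 was at 0 in any library. The ratio of the reads of the 6 fibrillar collagens to those of the 7 muscle genes was 1.06, 1.03, and 1.08 in *hmcn-1(RNAi)* libraries, against 0.962, 1.07, and 1.07 in control libraries, or 1.06 ± 0.0258 in *hmcn-1(RNAi)* and 1.03 ± 0.0636 in control (SD, n = 3 each). Set against the contractile genes of the same library, the collagens of the groups overlapped. The part of muscle content in the lower collagen levels was not tested.

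**Figure D5:**
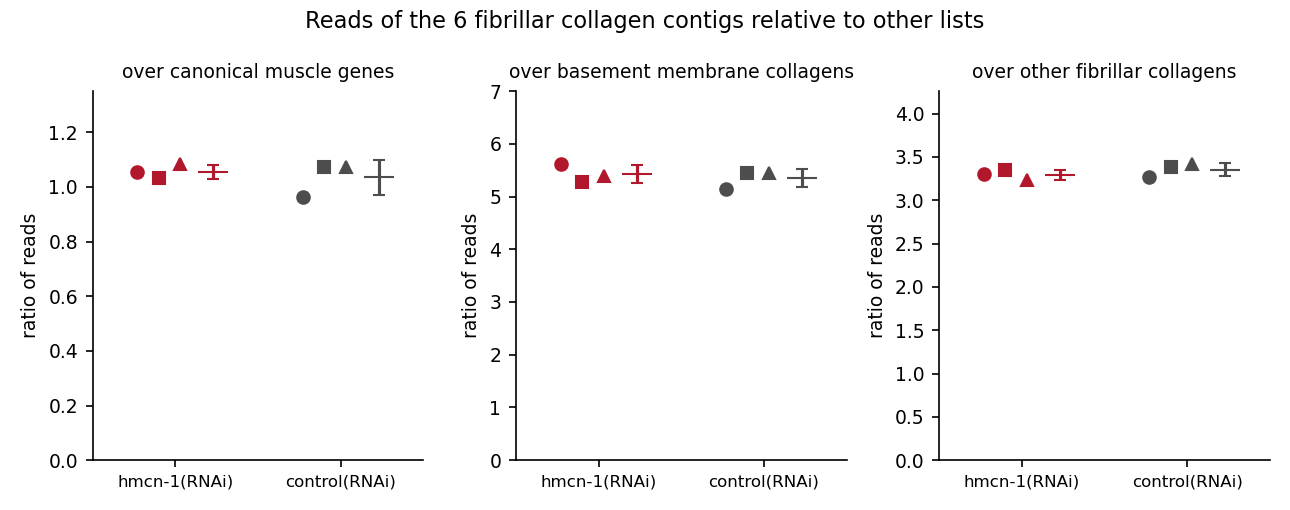
Ratio of the reads of the 6 fibrillar collagen contigs to the summed reads of the canonical muscle genes, the basement membrane collagens, and the other fibrillar collagens (vertical axes, from 0) in each *hmcn-1(RNAi)* and control(RNAi) library, with circles, squares, and triangles for replicates 1, 2, and 3 and the mean ± SD beside the points. The groups overlap in all 3 panels, for example at 1.03 to 1.08 in *hmcn-1(RNAi)* and 0.962 to 1.07 in control libraries for the muscle genes.

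Markers of other cell types of the tail were examined too. The neoblast genes were those the study used for neoblasts of the intestinal (gamma) and epidermal (zeta) lineages. No marker of all neoblasts was listed. Among 19 genes of neoblast, neural, parenchymal, epidermal lineage, *cathepsin*+ and gland cells, 2 were called lower (the neural gene *ChAT*, log2 fold change -0.28, and the epidermal lineage gene *prog-2*, -0.14) and 0 higher in edgeR, with 13 negative and 6 positive fold changes and a median log2 fold change of -0.070. Their summed level was 8688 to 9863 CPM in *hmcn-1(RNAi)* libraries and 8994 to 9190 CPM in control libraries, a sum to which the parenchymal gene *ZAN6* contributed most, and none was at 0. The *cathepsin*+ cell genes *AQP1* and *PTPRT* had positive log2 fold changes of 0.19 and 0.41 and were not called (adjusted p = 0.257 and 0.234, edgeR, Benjamini-Hochberg), with a summed level of 74.2 to 81.5 CPM in *hmcn-1(RNAi)* libraries and 60.3 to 71.5 CPM in control libraries. Their part in the collagen levels was not tested.

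The contigs outside the 6 that ran most closely along their mean pattern had no name in the supplementary tables. The nearest was dd_Smed_v6_9398_0_1, with a root mean square difference of 0.0186 in centred log2 CPM over the 6 libraries, followed by dd_Smed_v6_4579_0_1 with 0.0198. That second contig was at 130, 131, and 128 CPM in *hmcn-1(RNAi)* libraries, against 136, 144, and 149 CPM in control libraries, and neither was called. Of the other collagens, *col4-1* (0.0295) and *colF-6* (0.0346) were nearest, and among all 18 collagens *colF-11* (0.121) was farthest. The measure is over 6 libraries only and includes the difference between the groups.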

How the data were processed

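Poly(A) RNA of 6 tail pools was sequenced on Illumina HiSeq from a stranded kit (for the counting, no strand setting is stated in the sources used here). The authors aligned the reads by Bowtie 1.2.2 (-best option) with the contigs of the dd_Smed_v6 transcriptome, joined isotigs with SAMtools 1.9 and deposited raw read counts per contig. A deposited table of the authors' own DESeq2 comparison (mean, fold change, error, statistic, p values) was not used. Groups came from the sample labels, and names and primers from the supplementary tables.

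Counts were tested in R 4.3.3 with edgeR 4.0.16 (filterByExpr at 10 counts, TMM factors of 0.977 to 1.02, robust quasi-likelihood test, Benjamini-Hochberg adjustment over 15333 contigs, called at an adjusted p under 0.05). The SE is the log2 fold change divided by the square root of F. The common biological coefficient of variation was 6.28%. The test was also run on counts simulated with the dispersions estimated from these libraries. Its outcome is not given here and cannot show whether the calls in these data hold. Alternatives were RLE and upper-quartile factors, no filter, at least 100 counts in 3 libraries, DESeq2 1.42.0, voom in limma 3.58.1, glmTreat at 1.2-fold, a replicate block and each library left out. Centred levels used a prior count of 1. Plots used Python 3.11.15 and matplotlib 3.10.9.

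The 6 contigs and the lists were chosen with earlier results of these data known. Named were the 6 contigs, *hmcn-1*, listed genes that were called or highest or lowest of their list, and the contigs nearest in pattern. Contig lengths and sequences were not used here.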

Additional observations from a re-analysis of the deposited data

How the results depend on the processing

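Of 90 recomputed log2 fold changes of the 6 fibrillar collagen contigs, all were negative, 60 kept their side of the threshold, 22 lost a call and 8 gained one. They are not separate estimates, since all reuse the same 6 libraries. The glmTreat setting repeated the main fold changes, and DESeq2 gave the same ones with and without independent filtering. RLE factors and upper-quartile factors moved the median of all contigs by less than 0.01 and left 4 of the 6 called. The number of the 6 called was 2 in DESeq2 without independent filtering and 0 against a change of 1.2-fold, and between 0 and 6 when libraries were left out in turn. The number called of all contigs (173) was 339 without a filter, 111 and 66 in DESeq2 with and without independent filtering, 73 in limma-voom, 8 against 1.2-fold, and 75 to 255 with a library left out. Of the other fibrillar collagens, 0 were called in DESeq2 without independent filtering, in limma-voom and against 1.2-fold, and 0 to 2 with a library left out. Of the basement membrane collagens, 2 were called in DESeq2 without independent filtering and in limma-voom, 0 against 1.2-fold, and 1 to 4 with a library left out. Of the collagen modification and processing contigs, 2 were called without a filter and 0 in DESeq2 with independent filtering, which gave an adjusted p for only 9 of the 15. Of the 7 canonical muscle genes, 0 were called against 1.2-fold, 4 in limma-voom, and 3 to 6 with a library left out. DESeq2 called 5 of these genes with independent filtering (an adjusted p was given for 6) and 4 without it. Without the 10 largest contigs in the denominator, the share of reads was 0.939% in *hmcn-1(RNAi)* and 1.06% in control. The causes were not tested.

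Same-numbered libraries deviated together only in part (correlations of 0.00341, 0.212, and 0.0445 over 9507 contigs), and not every library correlated best with its own number. Deviations from a mean of 3 libraries cannot decide whether the numbers pair them. The main test used no pairing. With the replicate block, 292 contigs were called, 5 of the 6 fibrillar collagens among them (*colF-5* was added, adjusted p = 1.26e-05 in edgeR, Benjamini-Hochberg).

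With 3 pools per group, the calls of *colF-3*/*colF-4*, *colF-8*, and *colF-9* were lost in 3 of 6 leave-outs each and that of *colF-2* in 5. Counting error was at most 1.29% for the 6 contigs, and contigs with fewer reads are less precise.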

Other observations

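The secreted matrix metalloprotease genes *mmp1* and *mmp2* varied among the control pools. *mmp1* was at 2353, 2043, and 2664 CPM in *hmcn-1(RNAi)* libraries, against 2690, 1504, and 1259 CPM in control libraries, and *mmp2* at 1298, 1194, and 1521 CPM in *hmcn-1(RNAi)* libraries, against 1556, 829, and 662 CPM in control libraries. In both, control replicate 1 was the highest control library, whereas it was the lowest for 5 of the 6 fibrillar collagen contigs. Control replicate 3, the highest control library for all 6, was the lowest for both genes. The *hmcn-1(RNAi)* libraries did not show this inverse order. There replicate 2 was the lowest for *mmp1* and *mmp2* and also for 5 of the 6 fibrillar collagen contigs. Neither gene was called (adjusted p = 0.791 and 0.799, edgeR, Benjamini-Hochberg), and the groups overlapped for both. These genes were singled out after their values were seen.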
